A study of Arabidopsis thaliana with 2 samples.

Results

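Among the nuclear genes of Arabidopsis thaliana with assembled transcripts in young siliques, the seed pods, 79 genes each gave 5 or more new isoforms. A new isoform is an assembled transcript model that shares at least 1 splice junction with an annotated transcript of a gene but has another structure elsewhere. Members are annotated genes of chromosomes 1 to 5 with at least 5 such models, none of which holds an annotated intron of another gene. Of 33265 nuclear annotated genes, 109 had 5 or more new isoforms, and 30 of these were dropped because a model held an intron of a neighbour. The cyclin gene CYCB1;5 and the kinase gene CIPK3 were left out before this count (2 genes). The 79 members are 0.237% of all nuclear annotated genes and 0.352% of the 22447 with several exons, while 19.1% of the nuclear genes had at least 1 new isoform. The members were chosen by the number of new isoforms, which is given as a description, and the values taken from the same models carry no test.

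The 2 labelled libraries, replicates 1 and 2, both came from siliques of ago3-3 mutant plants in the Col-0 ecotype, grown on soil in long days and harvested 1 to 5 days after pollination. AGO3 encodes an Argonaute, a protein that binds small RNAs. Wild-type siliques of Col-0 are also named in the study's design, likewise in duplicate. Ribosomal RNA was removed before strand-specific paired-end sequencing. The deposited models are merged over the whole series, carry 0 columns with a value per library, and do not say which libraries were merged. A model may therefore come from ago3-3, from wild type or from both, its abundance and the depth behind it are unknown, and no genotypes were compared. The tissue label could not be checked on marker genes for the same reason.

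A spliceosome removes an intron between a donor site at its 5′ end, usually GT, and an acceptor site at its 3′ end, usually AG. A gene gives several isoforms when the machinery picks another donor or acceptor, leaves an intron in place (intron retention, a common form in plants) or uses other first or last exons. A changed reading frame often brings an early stop codon. Transcripts whose stop lies well upstream of an exon junction are targets of nonsense-mediated decay, the pathway that destroys them, and 50 nt before the last junction is the usual limit.

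The members carried more annotated exons than genes with few new isoforms. The annotated isoform with the most exons had a median of 12 exons in the 79 members (95% interval of the median 10 to 14, range 2 to 67), 7 in the 5558 genes with 1 to 4 new isoforms that met the same intron rule, and 5 in the 22447 genes with several exons. Members with 20 or more exons numbered 17 (21.5%), against 5.90% of the genes with 1 to 4 new isoforms. The longest annotated transcript had a median of 2422 nt in members and 1769 nt in genes with 1 to 4 new isoforms. A gene with more introns offers more places for a new junction, and a new isoform needs a spliced annotated partner. The number of exons and the number of new isoforms are thus not independent measures, and no test was made. AT1G48090, a calcium-dependent lipid-binding family gene, held the 67 exons, while AT1G06710 and AT1G48770 had 2.

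**Figure D1:**
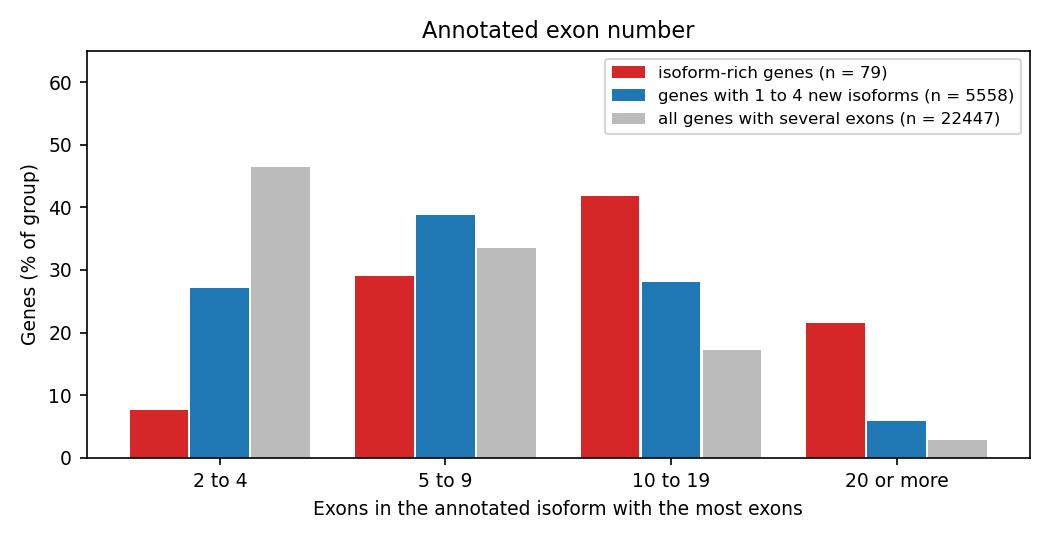
Share of genes (%, vertical axis) by the exon number of their annotated isoform with the most exons, for the 79 isoform-rich genes, the 5558 genes with 1 to 4 new isoforms and all 22447 nuclear genes with several exons. The isoform-rich genes hold 41.8% of their number at 10 to 19 exons and 21.5% at 20 or more, against 28.1% and 5.90% of the genes with 1 to 4.

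Most members had a single annotated isoform, though the share was below that of other genes. A single annotated isoform was listed for 45 of 79 members (57.0%) and for 63.8% of the genes with 1 to 4 new isoforms. The share was 73.8% in the 22447 genes with several exons. Members had a median of 1 annotated isoform and at most 7, at AT5G47900, a gene of a DUF1624 acetyltransferase-like protein. The 157 annotated isoforms of the members stood beside 453 new ones. New isoforms numbered 5 in 47 members, 6 in 13, 7 in 14, 8 in 3 and 9 in 2. The genes with 9 were AT1G62920 and AT1G33660. A newer reference annotation, described with the processing, held more models than the deposited annotated set for 59 of the 79. The same count was not made for other genes, so it does not set the members apart. Members lay on all 5 chromosomes, with 23, 11, 11, 16 and 18 on chromosomes 1 to 5. Of the 79, 76 were protein-coding, AT4G06701 was a non-coding RNA gene, AT1G33660 a transcribed pseudogene, and AT4G10845 was not listed in the newer annotation.

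At the threshold itself, the first members by locus code with exactly 5 new isoforms were AT1G05230, AT1G08910, AT1G10417 and AT1G10570, with 14, 17, 13 and 14 annotated exons. The first with exactly 4, just outside, were AT1G01920, AT1G04390, AT1G04425 and AT1G07690, with 16, 9, 3 and 5. The 4 members had 2, 4, 6 and 4 new introns, and the 4 genes outside had 3, 4, 3 and 3. A total of 97 genes sat at 4, so the edge divides neighbours that differ by 1 model.

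New introns, those in a new isoform and in no annotated transcript of any gene, numbered 386 in the members. The median was 4 per gene (range 0 to 28), and 75 of 79 members had at least 1. Another acceptor for an annotated donor was the commonest kind, with 133 introns (34.5%), against 43.5% of the 6892 new introns of the genes with 1 to 4 new isoforms. Another donor for an annotated acceptor made up 68 (17.6%), against 24.8%. Introns upstream of the annotated gene numbered 59 (15.3%, against 6.83%) and introns downstream of it 53 (13.7%, against 1.81%). The remainder were 28 with both sites new, 24 that joined annotated sites in a new pairing and 21 inside an annotated exon.

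The outside introns were concentrated in few genes. AT1G33660, AT4G10845 and AT5G22794 held 28, 21 and 19 new introns, most of them beyond the annotated ends. By total number, AT5G37240, SDG25, AT2G19260, AT1G62920, AT1G28710, AT4G31570 and AT1G06710 followed with 12, 12, 11, 9, 8, 8 and 8 new introns. In that order, 8, 4, 10, 6, 7, 1 and 0 of these lay upstream and 1, 1, 0, 0, 0, 0 and 2 downstream of the annotated gene. At AT1G48770, all 5 new introns lay downstream of the annotated gene. Upstream or downstream introns extend an annotated model to one with further exons, whereas the acceptor and donor changes vary an exon the annotation already had.

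**Figure D2:**
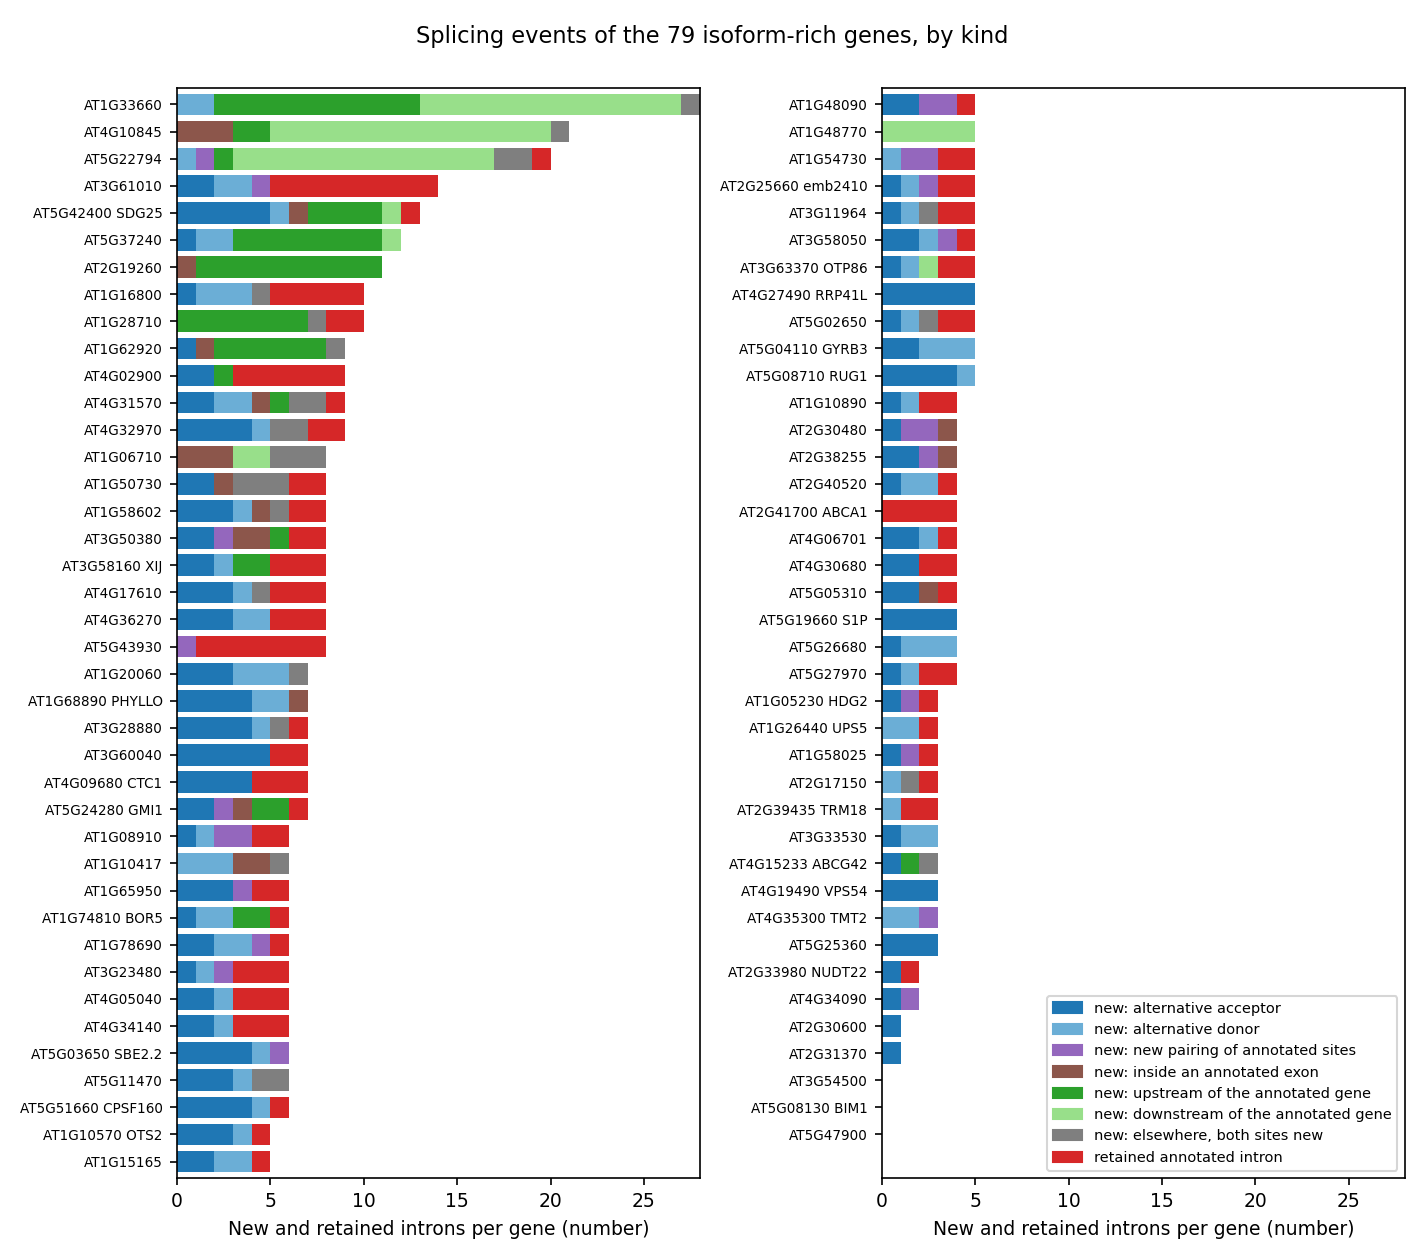
Number of new introns by kind and of retained annotated introns (horizontal axis) in each of the 79 isoform-rich genes, in falling order of the total. AT1G33660, AT4G10845 and AT5G22794 stand at the top with mostly upstream and downstream introns, AT3G61010, AT5G43930 and AT4G02900 hold 9, 7 and 6 retained introns (7, 4 and 6 separate regions once overlapping ones are merged), and AT3G54500, AT5G08130 (BIM1) and AT5G47900 have neither kind.

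Nearly all new introns had the usual ends. The junctions came from a spliced aligner whose settings are not given. The share of usual ends thus describes the models, and any preference of the aligner for such ends was not tested. GT and AG ended 376 of 386 (97.4%, 95% exact interval 95.3 to 98.7), against 95.2% in the genes with 1 to 4 new isoforms, and 1179 of the 1195 annotated introns of the members did so. GC and AG ended 7, none had the AT and AC ends of the minor class, and 3 had other ends, namely GT-CC at AT1G48770, GT-CA at AT3G60040 and GT-TA at RRP41L. Each of these 3 ended within a few bases of the acceptor of a GT-AG new intron of its gene. Whether they are separate sites was not tested. A repeat of 5 nt or more across both edges, where an aligner cannot place a junction with certainty, was found in 21 of the 376 GT-AG new introns (5.59%) and in 74 of the 1195 annotated introns (6.19%). The median new intron was 143.5 nt long (range 61 to 3576).

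Many alternative sites lay within a few bases of the annotated one. Of 201 alternative acceptors and donors, 54 (26.9%) were within 6 nt, against 26.0% in the genes with 1 to 4 new isoforms. The commonest shift was an acceptor 4 nt downstream (10 introns), followed by an acceptor 3 nt upstream (7), 5 nt downstream (6), and 6, 7 and 11 nt downstream (5 each). Inside coding spans, 48 of 162 shifts (29.6%) were multiples of 3 and kept the frame, against 35.2%. Most shifts inside coding spans thus moved the reading frame.

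The sites themselves show how close the choices lie. The windows below run 5′ to 3′ along the transcript, were read from the RefSeq TAIR10.1 genome and all lie in coding spans. Capitals mark each AG that ends the annotated intron or a new one. They are shown because the spacing of the capital pairs is the shift. In CTC1, which shares 1 donor between 3 acceptors, the middle AG is annotated and the outer ones are new, 5 nt upstream and 11 nt downstream (chr4:6117943-6117972, plus strand).
CTC1 first intron shown: ctaattttAGtgcAGatttttatcAGaaat
In a later CTC1 intron the second AG is new, 6 nt downstream, and keeps the frame (chr4:6121445-6121474, plus strand).
CTC1 later intron: ctgatttgttcaAGcaacAGgttctttcag
In SDG25 the first AG is new, 3 nt upstream (chr5:16955974-16956003, minus strand).
SDG25: gttggtttctgtAGtAGgtccaaataaatt
AT1G78690 has the same spacing, again with the new AG first (chr1:29597775-29597804, plus strand).
AT1G78690: ttaaccatgactAGtAGctgcataccttcc
In PIAL1 (chr1:2858223-2858252), VPS54 (chr4:10622617-10622646), CPSF160 (chr5:20982556-20982585) and AT4G02900 (chr4:1285684-1285713), all on the plus strand, the second AG is new and lies 4 nt downstream.
PIAL1: cccatttgctatAGgtAGttacttgattgc
VPS54: catgattcttgtAGgcAGgtgatttcaatt
CPSF160: atatatatttgtAGtcAGcctcctgtgctc
AT4G02900: aatttattatatAGacAGgttatggaggtt
In AT3G60040 the middle AG is annotated, and the new ones lie 3 nt upstream and 6 nt downstream (chr3:22178233-22178262, minus strand).
AT3G60040: attaatccAGcAGtttcAGgcacttttatc
The 3 nt and 6 nt shifts add or remove whole codons, and the 4, 5 and 11 nt shifts do not.

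The GC donors of new introns inside coding spans are the other set shown by their letters, since the usual donor is GT. They are given with the first intron bases in capitals, for PIAL1 (AT1G08910, chr1:2859101-2859124, plus strand), AT1G10417 (chr1:3424889-3424912, minus strand), AT1G16800 (chr1:5753380-5753403, minus strand) and SDG25 (AT5G42400, chr5:16956077-16956100, minus strand).
AT1G08910 donor: actgagaaagGCaagtagcttatt
AT1G10417 donor: tgagcttgagGCaagtgaaattga
AT1G16800 donor: actattacagGCaagcttgcatta
AT5G42400 donor: ctgcaaaaagGCaatttcctgcaa
The base before the intron was G in all 4 windows and an a followed the GC. The introns stood in 4 of 5, 2 of 5, 6 of 7 and 4 of 8 new isoforms of their genes, and those of AT1G10417, AT1G16800 and SDG25 are in the newer annotation. In SDG25 the donor is annotated and the acceptor is new.

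Retained introns, annotated introns that lay wholly inside an exon of a new isoform and of no annotated one, numbered 106 in 49 of the 79 members (62.0%, 95% interval 50.4 to 72.7). In the genes with 1 to 4 new isoforms 12.3% had one, from fewer models per gene. Retained introns had a median of 94.5 nt in members (range 49 to 7384) and 132 nt in the genes with 1 to 4 new isoforms. A length divisible by 3 was found in 45 of 106, and 93 of 105 in coding genes lay inside the coding span. Annotated introns that overlap are counted one by one, and merging them left 96 separate regions, with fewer regions than introns in 6 members. AT3G61010 had 9 retained introns in 7 regions, AT5G43930 7 in 4, AT4G02900 6 in 6, AT1G16800 5 in 5 and ABCA1 4 in 2. The 7384-nt intron lay on the 5′ side of AT1G58602, a disease resistance gene of the NB-ARC class.

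A new intron was present in 75 of 79 members, so most members with a retained intron held a new one too. Both kinds were present in 48 members, new introns alone in 27, retained introns alone in ABCA1, and neither in BIM1, AT3G54500 (LNK2) and AT5G47900. In the last 3 genes all new isoforms were new combinations of annotated introns. Among the 453 new isoforms, 69 (15.2%) held no event, 134 (29.6%) held 1 and 250 (55.2%) held 2 or more, against 12.5%, 69.6% and 17.9% in the genes with 1 to 4 new isoforms.

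The genes are described next in groups by their known roles, which were put together by hand, and a group's genes are examples rather than a class with a share of its own. A keyword search of the reference products gave the shares. It left 49 of 76 coding members (64.5%) as other or unknown, against 56.1% of the genes with 1 to 4 new isoforms. Transport and membrane held 7.89% (against 5.47%), transcription factors 2.63% (against 6.42%) and protein kinases and phosphatases 2.63% (against 8.09%). Ubiquitin and proteolysis held 3.95% (against 4.65%) and chaperones 0% (against 0.93%). Each of these comparison values lies inside the exact 95% interval of the members' share. The search placed 6 of 76 coding members (7.89%) with chromatin and DNA, against 3.11% of the genes with 1 to 4 new isoforms. That value too is inside the interval (2.95% to 16.4%). Those 6 were SDG25, AT5G11470, AT1G58025, the zinc-finger genes AT1G15165 and AT2G19260, and the tRNA and rRNA methyltransferase gene AT4G17610. An early stop was read in 18 of their 38 readable new isoforms, from 0 of 7 at AT2G19260 to 4 of 4 at AT1G15165. Genes of chromatin and genome maintenance in the wider sense include CTC1, PIAL1, OTS2 and GMI1, which the keywords did not place there. SDG25 (AT5G42400, also known as ATXR7, chromosome 5, 16954469 to 16960671, minus strand) encodes a SET-domain enzyme that methylates lysine 4 of histone H3 and activates the flowering repressor FLC. It had 1 annotated isoform of 17 exons and 8 new ones, with 12 new introns and 1 retained intron. Of the new introns, 5 used another acceptor, 4 lay upstream in the 5′ part, and 7 are in the newer annotation. Read from the annotated start, 3 of its new isoforms ended at the annotated stop without a distant junction after it and gave 1381, 1388 and 1412 residues, against 1388 annotated. The other 5 had an early stop, which left 65 residues in one model and 303 in another and at least 1381 in the rest.

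**Figure D3:**
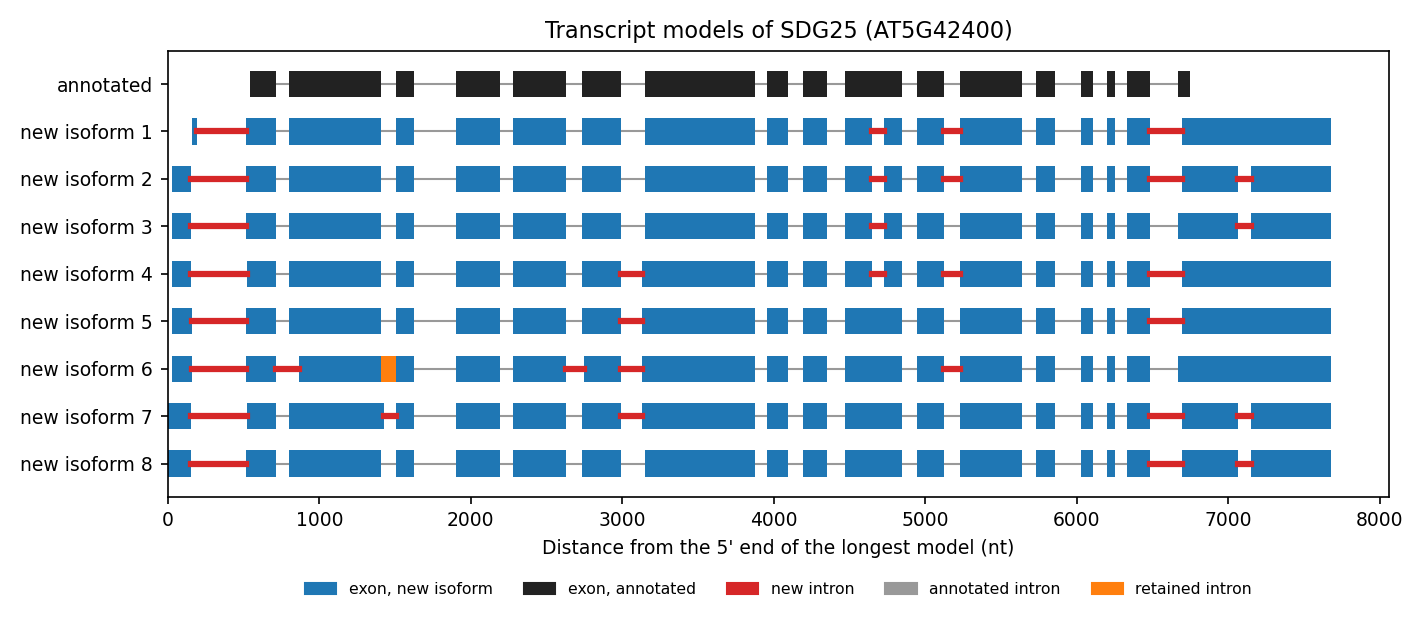
The annotated model and the 8 new isoforms of SDG25, with boxes for exons, lines for introns and the distance from the 5′ end of the longest model in nt on the horizontal axis. New introns sit in the 5′ leader, in the middle and near the 3′ end, and the models mix them: 4 of 8 hold the upstream AG of the SDG25 window above and 4 of 8 the new intron inside an annotated exon.

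CTC1 (AT4G09680, chromosome 4, 6116755 to 6123304, plus strand) encodes the large subunit of the CST complex, which protects telomeres. Its 7 new isoforms, beside 2 annotated ones of up to 16 exons, held 4 new and 3 retained introns. All 4 new introns used another acceptor. The later acceptor shown above was present in 3 of 7 models, and the model in which it was the sole event gave 1272 residues, against 1274 annotated, and has its whole intron chain in the newer annotation. The other 6 models had an early stop after 354 to 481 residues.

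The remaining genome-maintenance genes differed in how much protein their models kept. GMI1 (AT5G24280), a protein with an SMC-type hinge needed for somatic homologous recombination, had 38 annotated exons and 5 new isoforms, of which 4 kept the annotated stop with 1564 to 1590 residues against 1598 annotated. AT5G11470, the BAH-domain protein IBM2 that lets transcription pass heterochromatic introns, had 6 new isoforms, of which 5 had an early stop and 1 kept all 711 residues. PIAL1 (AT1G08910), a SUMO ligase, and OTS2 (AT1G10570), a SUMO protease, each had an early stop in all 5 new isoforms, after 236 to 335 of 829 and 130 to 372 of 570 residues. In contrast, 6 of the 7 new isoforms of the bromodomain gene AT1G58025 kept the annotated stop with 580 to 582 residues against 582 annotated.

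The keyword count cannot show whether RNA-processing genes were more or less frequent among the members. RNA binding and splicing held 2 of 76 coding members (2.63%, exact 95% interval 0.32% to 9.2%). The share in the genes with 1 to 4 new isoforms, 4.14%, lies inside that interval. Of the 2 members, 1 was RRP5, and the other, AT3G61010, is a ferritin or ribonucleotide reductase-like gene that matched by its name. The keywords did not place CPSF160, RRP41L, OTP86 and AT1G06710 in any class, and they put AT4G17610 with chromatin and DNA. The RNA genes given here are examples by known role. AT3G11964, the ribosomal RNA processing factor RRP5 (1896 residues, 40 exons), had 6 new isoforms, and 4 of them kept the annotated stop with 1905 to 1922 residues. Its 3 new introns are all in the newer annotation. AT4G17610, a tRNA and rRNA methyltransferase family gene of 35 exons, kept the stop in 3 of 6 new isoforms with 1829 to 1849 residues against 1828 annotated. CPSF160 (AT5G51660), a subunit of the complex that cleaves and polyadenylates mRNA, behaved otherwise: each of its 6 events stood in a single one of 5 new isoforms, and all 5 had an early stop after 278 to 383 of 1442 residues.

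In 3 further RNA genes most models kept the whole protein. OTP86 (AT3G63370), which edits a chloroplast transcript, and AT1G06710, known as the mitochondrial RNA stability factor MTSF1, are pentatricopeptide repeat proteins with few introns. In OTP86 6 of 7 new isoforms, and in AT1G06710 5 of 6, encoded the whole annotated protein of 960 and 997 residues and were counted with an early stop because introns lay more than 50 nt after the annotated stop. The remaining models gave 884 and 13 residues. RRP41L (AT4G27490), an exoribonuclease family protein, had 4 new introns from 1 donor on the 5′ side. They ended 29, 7 and 6 nt upstream and 5 nt downstream of the annotated acceptor. The one at 7 nt has GT-TA ends and stops at 13739944, beside the GT-AG intron that stops at 13739945, so it may not be a separate site. In RRP41L 4 of 5 new isoforms kept all 256 residues.

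Several regulators of transcription and signalling had many annotated isoforms and few new introns, but some were picked for their annotated isoforms. That holds for BIM1, PosF21 and AT2G30600 below. The pattern was not shared by all regulators, since SDG25 and AT2G19260 had 1 annotated isoform each and 12 and 11 new introns. It was also present elsewhere, as at AT5G47900 with 7 annotated isoforms and 0 new introns. BIM1 (AT5G08130), a basic helix-loop-helix protein of brassinosteroid signalling, had 6 annotated and 6 new isoforms and 0 new introns, and 4 of the new chains are in the newer annotation. LNK2 (AT3G54500), a light-induced clock coactivator, had 4 annotated and 5 new isoforms, likewise with 0 new introns. PosF21 (AT2G31370), a bZIP protein, and AT2G30600, a BTB/POZ-domain gene, had 6 and 5 annotated isoforms and 1 new intron each. HDG2 (AT1G05230), a homeodomain protein of the epidermis, had 4 annotated isoforms, 2 new introns and 1 retained intron, and 4 of its 5 new isoforms ended at the annotated stop with 719 or 721 residues.

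Transport and trafficking genes ranged from nearly intact to wholly truncated models. All 5 new isoforms of VPS54 (AT4G19490), a subunit of the GARP tether at the trans-Golgi network, had an early stop, after 472 residues in 3 and 959 in 2 of 1034 annotated. The myosin gene XIJ (AT3G58160) kept all 1242 residues in 2 of 5 models, and the borate transporter family gene BOR5 (AT1G74810) kept 683 in 2 of 5. TMT2 (AT4G35300), a sugar carrier of the vacuole membrane, ended after 159 of 729 residues in 4 of 5 models. The 3 new introns of TMT2 all lay on the 5′ side, outside the coding span, and it had 0 retained introns as defined here. ABCA1 (AT2G41700), a large ABC transporter with 40 annotated exons, had 0 new and 4 retained introns, and none of its 5 new isoforms contained the start codon of the annotated model used for the reading. UPS5 (AT1G26440), a ureide permease, had 4 annotated isoforms and kept the stop in 3 of 5 new ones.

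The metabolic enzymes ranged from no early stop to an early stop in every readable model. The keyword class of this name held 6 of 76 coding members (7.89%), against 11.1% of the genes with 1 to 4 new isoforms. That value is inside the exact 95% interval of the members' share (2.95% to 16.4%). The 6 include the myosin gene XIJ and AT1G16800, which matched through the word hydrolases in their family name. In this class 19 of 31 readable new isoforms had an early stop (61.3%), near the 58.1% of all members given below. AT1G28710, a sugar transferase family gene, had 8 new introns on its 5′ side and kept all 340 residues in each of the 4 models that held the start. AT1G16800, a large nucleoside triphosphatase gene, kept the annotated stop in 3 of 6 with 2156 to 2239 residues, all longer than the 2114 annotated. AT3G23480, named a cyclopropane-fatty-acyl-phospholipid synthase, had an early stop in 4 of 5. PHYLLO (AT1G68890), a fusion enzyme of phylloquinone synthesis with 28 exons, had 7 new introns, none in the newer annotation, and all 6 new isoforms had an early stop, 4 of them after 327 of 1715 residues. S1P, SBE2.2 and AT1G78690 fall outside that keyword class. S1P (AT5G19660), the Golgi site-1 protease that releases membrane-bound transcription factors, had 4 new acceptors and no retained intron, and 4 of 5 models had an early stop after 227 to 288 of 1038 residues. In SBE2.2 (AT5G03650), a starch branching enzyme, 4 of 5 models had an early stop. AT1G78690, an acyltransferase of phospholipids, gave 7 new isoforms, of which 5 had an early stop and 1 kept all 284 residues. The nudix hydrolase gene NUDT22 (AT2G33980) had 1 new intron and 1 retained intron of 1353 nt in 5 new isoforms.

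Among the members with family names only, the share of truncated models ranged widely. AT1G62920 (chromosome 1, 23304313 to 23306374, plus strand), named a proteasome maturation factor, had 9 new isoforms and 0 early stops, and 8 of 9 kept the annotated stop with 194 to 260 residues against 260 annotated. AT2G19260, a zinc-finger gene, gave 596 residues in 6 of 7 new isoforms and 631, the annotated length, in the other; the 6 share a new intron of 105 nt inside an annotated exon. AT1G20060, a kinesin-type motor gene, kept the annotated stop in all 6, with 958 to 974 residues against 970. AT4G31570 (8 new isoforms, 2730 annotated residues) kept it in 5, while AT4G32970, a BRISC complex protein gene with 8 new isoforms, had an early stop in 7, after 108 to 338 of 638 residues.

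The kinase gene AT1G65950, the transporter gene AT1G54730 and the F-box gene AT3G60040 had an early stop in 6 of 6, 7 of 7 and 6 of 7 readable new isoforms. AT1G15165, a RING, FYVE or PHD zinc-finger gene with 4 new introns and 1 retained intron, had an early stop in all 4 readable models, after 45 or 176 of 329 residues. AT3G28880, named a regulatory ankyrin repeat subunit of protein phosphatase 6, had 6 new introns, and its 6 new isoforms were divided evenly between an early stop after 171 to 177 residues (3) and the whole protein of 492 (3). AT4G05040, an ankyrin repeat family gene with 5 annotated and 5 new isoforms, had 3 retained introns in 2 regions and 0 early stops, and 4 of the 5 kept the annotated stop. AT3G61010, AT5G43930 and AT4G02900, the genes with the highest counts of retained introns, had early stops in 5 of 6, 5 of 5 and 4 of 5. In AT5G43930, 2 of those 5 ended at the annotated stop. AT1G50730 and AT5G37240, both uncharacterized, had early stops in 5 of 7 and 4 of 7.

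AT1G33660, AT4G10845 and AT5G22794 stood apart from the others. AT1G33660 (chromosome 1, 12197701 to 12198322, minus strand), a transcribed pseudogene of the peroxidase family with 3 annotated exons, had 9 new isoforms of 9 to 19 exons, and 3 upstream introns were present in all 9. AT4G10845 (chromosome 4, 6662595 to 6663964, plus strand) had new isoforms of 11 to 17 exons beside 4 annotated exons, and 15 of its 21 new introns are in the newer annotation. AT5G22794 (chromosome 5, 7608242 to 7611591, plus strand) had 12 to 20 exons in its new isoforms. Their models run far beyond the annotated ends. The non-coding gene AT4G06701 had 5 annotated and 6 new isoforms with 3 new introns and 1 retained intron.

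Whether events combine freely was read from pairs of events that do not overlap. For each pair, the annotated and new models of the gene that span both were sorted into those with both, with the first alone, with the second alone and with neither. All 4 kinds were present for 168 of 1869 pairs (8.99%). In 774 pairs (41.4%) one event occurred only with the other, 657 pairs (35.2%) were never together, 247 (13.2%) always together and 23 (1.23%) never both absent. Most pairs could not have shown all 4 kinds, because that needs each event in at least 2 of the spanning models and its absence from at least 2, and many new introns stood in a single isoform. The counts of each event allowed all 4 kinds in 282 pairs. Of these, 168 had them (59.6%, 95% interval 53.6 to 65.3), a count added after the values were seen. Pairs of 1 gene share models and events, which the interval does not take into account. AT1G33660 and SDG25 gave 30 and 25 of the 282. Of the same 282, 70 pairs had one event only with the other (24.8%), 28 were never together (9.93%), 11 always together and 5 never both absent. The share thus depends on which pairs are counted, and shares for genes with fewer models cannot be set beside these. An assembler joins distant events by inference from short reads, so the counts describe the models and not single RNA molecules.

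The share seen in all 4 kinds was 11.0% of 471 pairs less than 500 nt apart, 9.91% of 767 pairs from 500 to under 2000 nt apart and 6.34% of 631 pairs at 2000 nt or more. Among the pairs that allowed all 4 kinds the order was the other way round, with 49.1% of 106, 63.9% of 119 and 70.2% of 57 pairs. The number of models with each event moves with distance in these counts, and its part was not tested. AT1G33660, AT4G10845 and AT5G22794 alone supplied 366, 203 and 185 pairs. Without them the share was 13.3% of 1115 pairs, and 62.4% of the 237 that allowed all 4 kinds, alternatives chosen after the values were seen.

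At least 1 pair in all 4 kinds was found in 44 of the 72 members that had a pair, and in 44 of the 51 with a pair that allowed it. SDG25 (AT5G42400) had 18 of 71 pairs in all 4 kinds, out of 25 that allowed it. The upstream AG of its window (intron 16955990 to 16956090) and the downstream intron 16954064 to 16954148, 1841 nt apart, were together in 1 model, apart in 3 and 3, and both absent in 1. The same downstream intron and the intron inside an annotated exon (16956492 to 16956566), 2343 nt apart, stood 2, 2, 2 and 2. AT1G33660, AT1G62920 and AT2G19260 followed with 17 of 366, 14 of 28 and 13 of 50 pairs, then AT4G36270 with 8 of 27, AT1G20060 with 7 of 21 and AT5G02650 with 6 of 9.

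CTC1 (AT4G09680) combined its late acceptor with a retained intron 2894 nt upstream in 1 model, while 3 models had the retained intron alone, 2 the acceptor alone and 2 neither. The pair was among 5 of its 18 in all 4 kinds, out of 9 that allowed it. AT4G32970 likewise had 5 in all 4 kinds of 9 that allowed it, and PHYLLO 1 of 3. In CPSF160 each event stood in 1 model, so none of its 14 pairs could show all 4 kinds.

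Whole models were counted as well. Each member had a median of 4 regions with more than 1 splicing state (range 1 to 9), which allow a median of 36 combinations (range 4 to 1152). Models that cover all regions of a gene showed a median of 6 combinations (range 1 to 11), and the median member showed 16.7% of its possible combinations. Every possible combination was present in 1 member, AT5G26680, which has a single such region with 7 states. States are counted from the same models, so with a single region all of them are found by definition. SDG25 showed 7 of 1152, CTC1 8 of 216, AT1G62920 9 of 48 and AT5G47900 11 of 256. The number found cannot exceed the number of models, 14 distinct intron chains at most at AT5G47900, so the number of models caps these shares.

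**Figure D4:**
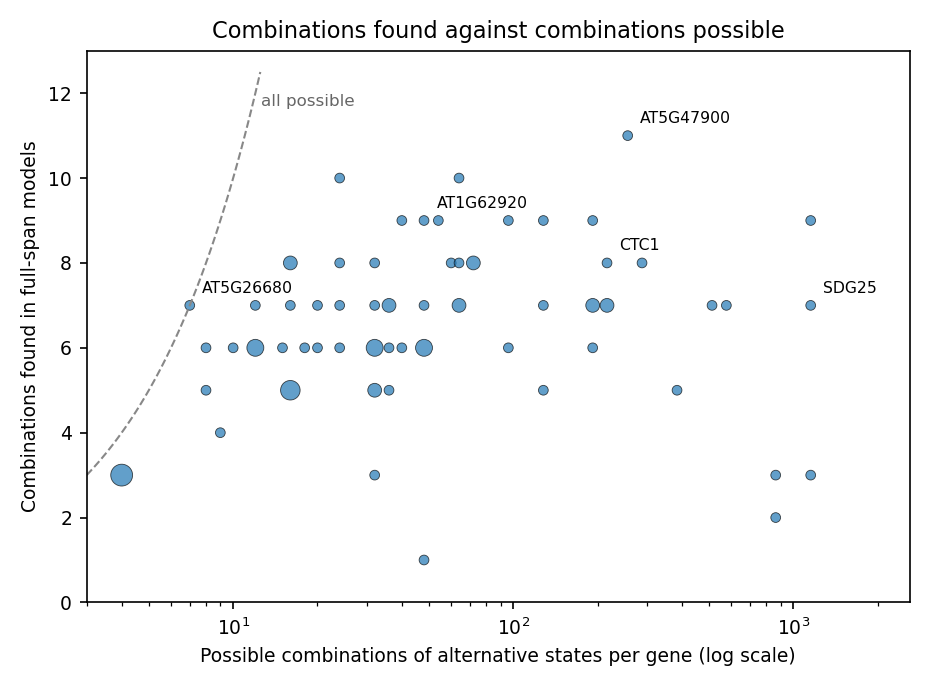
Combinations of alternative splicing states found in models that cover all variable regions of a gene (vertical axis) against the number of combinations those states allow (horizontal axis, log scale), with point area in proportion to the number of genes. The 79 genes lie between 1 and 11 found for 4 to 1152 possible. AT5G26680 alone lies on the dashed line where all possible combinations are found, by definition, as it has a single variable region.

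Read from the annotated start codon, most new isoforms had an early stop. Of 408 new isoforms that held the start, 237 (58.1%, 95% interval 53.1 to 62.9) stopped more than 50 nt before the last junction, against 43.7% of 7006 in the genes with 1 to 4 new isoforms and against 14 of 149 annotated transcripts of the members (9.40%). In 31 of the 237 the stop was the annotated one with an intron after it, as in OTP86 and AT1G06710. The other 206 (50.5%, against 39.4%) kept a median of 27.8% of the annotated protein length, against 37.6% in the genes with 1 to 4. The annotated stop and length were both kept by 45 (11.0%, against 21.7%), the annotated stop with another length by 80 (19.6%, against 20.4%), and 43 (10.5%) used another stop. Members also had more events per model, and its part in these shares was not tested. At least 1 early-stop isoform was present in 64 members, and in 14 of the 75 with a readable isoform every one had it. Those 14 include AT1G48770, OTP86 and AT1G06710, where 5 of 5, 6 of 7 and 5 of 6 such stops were the annotated one. A gene with more models has more chances to hold such an isoform, and no such count was made for other genes. Whether the early-stop transcripts were degraded was not measured.

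**Figure D5:**
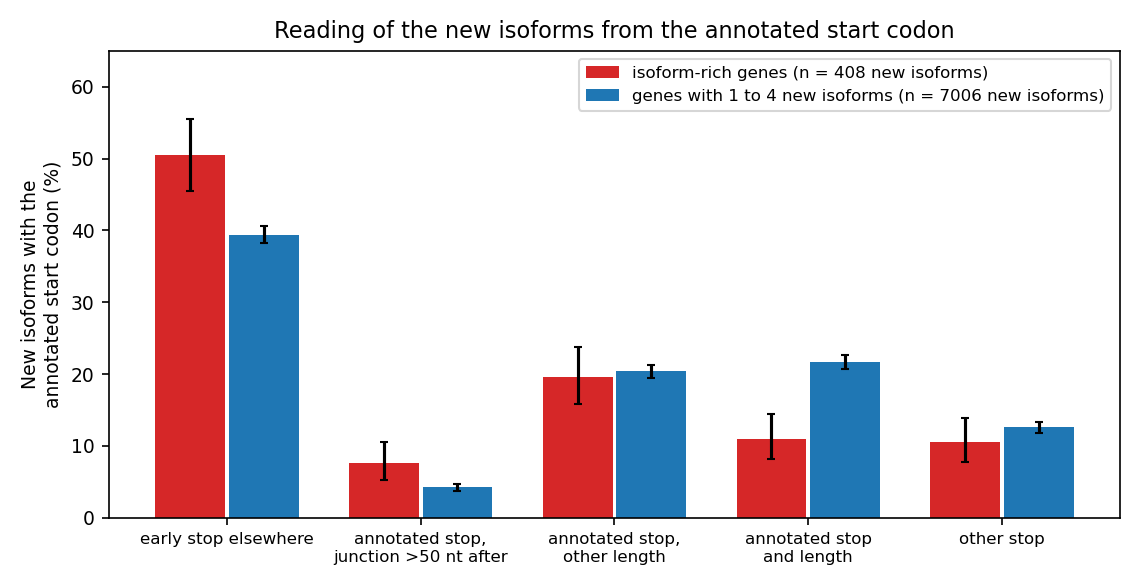
Share of new isoforms with the annotated start codon (%, vertical axis) by reading outcome, in the isoform-rich genes (408 new isoforms) and in genes with 1 to 4 new isoforms (7006), with exact 95% intervals for counting error. Early stops away from the annotated stop make up 50.5% and 39.4%, and models that keep both stop and length 11.0% and 21.7%.

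Part of the new structure has since entered the annotation. Of the 386 new introns of the members, 143 (37.0%, 95% interval 32.2 to 42.1) are introns of the newer annotation, against 24.9% in the genes with 1 to 4 new isoforms. Whole intron chains were found there less often, for 46 of 453 new isoforms (10.2%) against 16.7%. BIM1 and AT4G31570 had 4 such chains each, AT1G20060 had 3, and 46 members had none. A new intron stood in a single isoform of its gene in 162 cases (42.0%) and in every new isoform of it in 15 (3.89%).

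For 3 members, reads may come from a near-identical copy elsewhere in the genome, defined as 90% identity over at least 50% of the longest annotated transcript. These were AT4G15233 (ABCG42, 94.7% covered), AT5G22794 (90.4%) and AT1G58602 (51.3%), and their values are uncertain for that reason. Partial copies covered 47.2% of AT4G34090, 41.7% of AT4G36270, 36.7% of AT3G23480, 35.8% of AT4G10845 and 31.5% of AT3G61010. In 6 members, among them AT1G33660, AT1G62920 and AT2G19260, new isoforms overlapped an exon of another gene on the same strand.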

How the data were processed

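The authors deposited 1 set of merged transcript models for the whole series. Per the submitters' processing notes, CASAVA 1.8, TopHat2 (spliced alignment) and Cufflinks (transcript assembly) were used on the TAIR10 build. For the merging step, the settings and the versions of TopHat2 and Cufflinks, the sources used here give nothing. The deposited values used are exon positions, 1-based, and the class of each model relative to the annotation. They hold no count, coverage or expression level and 0 columns with a value per library, so the depth is unknown and there is no replicate error. Intervals are exact binomial or order-statistic 95% intervals and cover counting error only. They take the introns, isoforms and pairs of 1 gene as independent, although these come from the same models.

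An assembler builds few models from short reads and can join unlinked events, and merging keeps models from any library. Annotated transcripts are present in such a set whether or not reads covered them.

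Sequence, gene types and a newer gene annotation came from RefSeq TAIR10.1. Of 127854 annotated nuclear introns, 126616 are introns there too, 32807 of 32811 shared genes overlap in position and strand, and 0 exon ends lie beyond a chromosome, so TAIR10 nuclear coordinates were used as they stand. Introns were derived from exons with Python 3.11.15, intervals came from SciPy 1.17.1, and copies were sought with BLAST+ 2.17.0. Event and reading-frame code was tested on simulated models. The reading started at the annotated start codon of the named reference model, or of the longest protein. The regions before and after the coding span are called the 5′ and 3′ sides.

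The members and lists were chosen with earlier results of these data known. Named genes are all with 6 or more new isoforms, those with the most new introns, retained introns, freely combining pairs and annotated isoforms, the first by locus code at the threshold, and up to 4 per function class. AT1G48090, AT1G48770, CPSF160, GMI1, VPS54, RRP41L, TMT2, SBE2.2, LNK2, AT5G26680 and the genes with copies were chosen after their values were seen. Where gene products are named by function, the names are background and not from the files. No test was made, since the rule used the same models. Alternatives changed the number of new isoforms needed, the rule on neighbours, the definitions of events and stops, and the members.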

Additional observations from a re-analysis of the deposited data

How the results depend on the processing

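No paired analysis was possible because the models carry no column per library and the labels give 1 group. Of the values recomputed under alternatives, 45 stayed near those reported and 5 moved. Near means inside the 95% interval for a share or median and within 1.5 times for the number of genes, which was 109 when genes holding an intron of a neighbour were kept and 73 without genes that overlap an exon of another. With 6 or more new isoforms required, 32 genes met the rule, with a median of 5.5 new introns per gene. When any stop before the last junction counted as early, the share was 64.0% of the readable new isoforms. Without AT1G33660, AT4G10845 and AT5G22794, 13.3% of event pairs were seen in all 4 kinds, and where each event was present in and absent from at least 2 spanning models the share was 59.6%, both added after the data were examined. Under the other alternatives that share ran from 7.92% with new isoforms alone to 10.25% with 6 or more new isoforms required. Limits are the unknown depth, the unknown libraries behind each model, the inference by which an assembler links distant events, and a comparison set with fewer models per gene.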
